A study of Mus musculus with 8 samples.

Results

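The miRNAs miR-204 and miR-211, a pair of paralogs encoded inside the ion channel genes Trpm3 and Trpm1, were followed in the RISC of the brains of mice that model amyloid deposition. The members were the names mmu-miR-204-5p, mmu-miR-204-3p, mmu-miR-211-5p and mmu-miR-211-3p, and all reads that the table gave one of these names were summed. Of the 4 names, 3 had reads, among 895 miRNA names in the table, and mmu-miR-211-3p had none. The names were selected on results from these same 8 libraries, in which miR-211-5p had the highest log2 fold change toward ko of 463 miRNAs, so levels, paralog share and ko against het differences are given as a description with no test. Composition within each miRNA, which the summed levels do not use, was tested.

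R-sRNAs came from cortex and hippocampus combined of female mice, 6 or 8 months old in a mixed C57BL/6J/SJL background, with 4 libraries of 5XFADtg/Rubicon het (5XFADtg Rubicon+/-, het) and 4 of 5XFADtg/Rubicon ko (5XFADtg Rubicon-/-, ko). The age is not given per library, although the paper's Results describe age-matched mice of 6 months. Both groups carry the 5XFAD transgene, in which the neuronal Thy1 promoter drives human amyloid precursor protein and presenilin with familial Alzheimer's mutations, and both lack at least 1 copy of Rubicon, a gene that constrains autophagy, so no group is free of either change. Argonaute proteins were pulled down with a GW182 peptide, and the bound small RNAs were sequenced without molecular identifiers. Levels are CPM, reads per 1000000 reads of the library, and library depth ran from 517980 to 19915863 reads, with the 2 deepest libraries both ko.

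miR-204 and miR-211 arose from a shared ancestor and carry the same seed, the bases after the first one that decide which mRNAs a guide strand recognizes. Trpm3, the host of miR-204, is abundant in the choroid plexus, the epithelium that makes cerebrospinal fluid, and miR-204 is also known from the retinal pigment epithelium and the lens. Trpm1, the host of miR-211, is known from melanocytes, where MITF drives it, and from the retina. A miRNA hairpin is cut into a 5p and a 3p arm, of which usually 1 is kept by Argonaute.

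The mature sequences are shown first because a single base tells the 5p paralogs apart. They are from RefSeq (GRCm38.p6), 5′ to 3′, with the seed (bases 2 to 8) in capitals, and all 4 names were matched.
mmu-miR-204-5p: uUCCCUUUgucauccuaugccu
mmu-miR-211-5p: uUCCCUUUgucauccuuugccu
mmu-miR-204-3p: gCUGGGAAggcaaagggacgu
mmu-miR-211-3p: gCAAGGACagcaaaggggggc

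The 5p arms of 22 nt shared 21 bases and the whole seed, and differed by A17U alone, with the miR-204-5p base first and positions counted from the 5′ end. The 3p arms of 21 nt shared 14 bases and differed within the seed by U3A, G4A and A8C. The Mir204 hairpin lies on chr19:22750605-22750672, plus strand, in an intron of Trpm3 (chr19:22139046-22995410, plus strand), and was intronic in all 18 Trpm3 transcripts of GENCODE M21 that span it. The Mir211 hairpin lies on chr7:64205806-64205911, plus strand, in an intron of Trpm1 (chr7:64153835-64269775, plus strand), and was intronic in all 12 Trpm1 transcripts that span it. Neither hairpin overlapped an exon.

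mmu-miR-204-5p was the abundant member, with 119345 reads over 104 read sequences, and ranked 52 of 895 miRNA names by mean level. It stood at 2382, 4665, 3459 and 3058 CPM in het replicates 1 to 4, and at 2992, 2927, 4435 and 2109 CPM in ko replicates 1 to 4. The genotypes overlapped, with the highest library in het and the lowest in ko. The het libraries averaged 3391 ± 959 CPM and the ko libraries 3116 ± 967 CPM (SD, n = 4 each), and the spread between libraries of a genotype was larger than the difference between genotypes. The log2 fold change on log2(CPM + 1), ko against het, was -0.13 (SE 0.29).

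mmu-miR-204-3p, the other arm of the same hairpin, stood at 146.7, 127.9, 85.4 and 190.3 CPM in het replicates 1 to 4. In ko replicates 1 to 4 it stood at 123.5, 91.0, 229.9 and 54.9 CPM. Here the highest and the lowest library were both ko. The het libraries averaged 137.6 ± 43.5 CPM and the ko libraries 124.8 ± 75.4 CPM (SD, n = 4 each), and the log2 fold change was -0.27 (SE 0.42). Both miR-204 values lie near the median log2 fold change of all 463 tested miRNAs, which was -0.09. Centring each library on its median raised all values by 0.22, and the log2 fold change then was 0.09 for miR-204-5p and -0.05 for miR-204-3p. For miR-204-5p the SE of 0.29 is larger than the log2 fold change under either scaling, so no direction can be given for the 5p arm.

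mmu-miR-211-5p was scarce, with 898 reads over 9 read sequences, and ranked 431 of 895. It was at 0 in het replicates 1 and 2, at 9.71 CPM (25 reads) in het replicate 3 and at 12.4 CPM (33 reads) in het replicate 4. In ko replicates 1 to 4 it was at 43.6, 18.9, 47.7 and 8.82 CPM, from 343, 377, 111 and 9 reads. The 3 highest libraries were ko, but ko replicate 4 fell below het replicates 3 and 4, so the genotypes overlapped. The het libraries averaged 5.52 ± 6.47 CPM and the ko libraries 29.8 ± 18.9 CPM (SD, n = 4 each), and the log2 fold change was 2.88 (SE 0.93). This value chose the member, and it depends on the pseudocount, since 2 het libraries are at 0. It was 4.54 with a pseudocount of 0.1 and 1.31 with a pseudocount of 10. On the recovered reads it was 2.31 by edgeR and 2.49 by DESeq2.

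The 2 libraries at 0 were the shallowest of het. At the depth of het replicate 1, the shallowest library, the levels of het replicates 3 and 4 would give 5.03 and 6.42 reads, and those of the ko libraries between 4.57 and 24.7 reads. A count of 0 allows up to 5.79 CPM in het replicate 1 and 2.06 CPM in het replicate 2, taking 3 reads as the limit, and 1.52 CPM in these 2 libraries together. Such limits and the intervals below cover counting error only. Depth moved with the level, as the Pearson r of log2(CPM + 1) with log10 depth over the 8 libraries was 0.66 for miR-211-5p and 0.16 for miR-204-5p. The part of depth in the miR-211-5p levels was not tested, and without the 2 libraries over 5000000 reads the log2 fold change was 2.66 (SE 1.34).

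**Figure D1:**
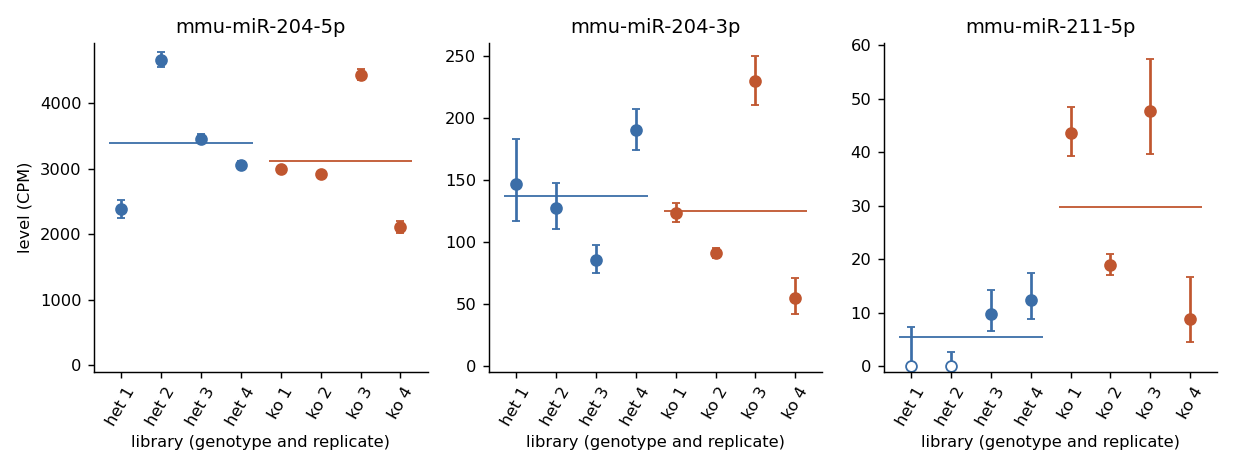
Level in CPM (linear axes that differ between panels) of the 3 members with reads in each het (blue) and ko (orange) library, with 95% Wilson intervals of the counts as bars and the genotype mean as a line; open points are libraries with 0 reads. miR-204-5p lies between 2109 and 4665 CPM in every library, while miR-211-5p ranges from 0 to 47.7 CPM.

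The limma test ran on 463 miRNAs, those that averaged 10 CPM or more. It called 6 of them (1.30%) at a threshold of 0.05 on the adjusted p, each lower in ko, and 0 of the 3 members with reads. At an unadjusted p under 0.05 there were 34 miRNAs, of which 1 was a member, miR-211-5p. On the recovered reads edgeR called 4 of 463 miRNAs (0.864%) and DESeq2 9 of the 462 to which it gave a p (1.95%), and both called 0 of the 3 members. At an unadjusted p under 0.05 edgeR had 25 (5.40%) and DESeq2 30 (6.49%), of which 1 each was a member. Groups that did not overlap were found for 3.46% of the 463 miRNAs and for 0 of the 3 members. As this contrast chose the members, nothing is read from these counts.

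As both 5p paralogs present the same seed, their share of the pair was computed in each library. miR-211-5p made up 0% of the 5p pair in het replicates 1 and 2, which allows a share of up to 0.243% and 0.0442%, and 0.280% and 0.404% in het replicates 3 and 4. In ko replicates 1 to 4 it made up 1.44%, 0.643%, 1.06% and 0.416%. miR-204-5p thus outnumbered its paralog in every library, by 68.6 to 1 in ko replicate 1 and by 356.3 to 1 in het replicate 3. The mean share was 0.171% ± 0.204 in het and 0.890% ± 0.453 in ko (SD, n = 4 each). Without het replicate 4 the het mean was 0.0933%. The lowest ko share, in replicate 4, had a 95% Wilson interval of 0.219% to 0.790%, which holds the highest het share. Over the 8 libraries miR-204-5p and miR-211-5p had a Pearson r of 0.05 on log2(CPM + 1), a description over points that share their library depth.

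**Figure D2:**
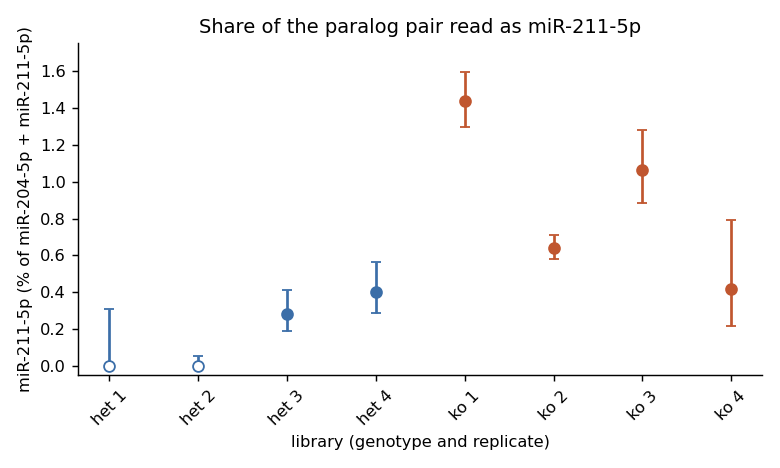
miR-211-5p as a percent of miR-204-5p plus miR-211-5p reads in each library, het in blue and ko in orange, with 95% Wilson intervals; open points are libraries with 0 miR-211-5p reads. The share stays under 1.6% in all 8 libraries, and the interval of ko replicate 4 overlaps that of het replicate 4.

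Because 1 base separates the 5p paralogs, a read of miR-204-5p with U in error for A at position 17 would be named miR-211-5p. A17U and the other 53 single-base changes at positions 2 to 19 of mature miR-204-5p were therefore counted over the whole table. The A17U read, which is mature miR-211-5p, had 671 reads beside 85166 of mature miR-204-5p. The most frequent of the other 53 changes, U6C, had 129 reads, and the median was 13, where changes that were not listed count as 0. In het replicates 3 and 4 the A17U read stood at 7.38 and 9.39 CPM, while the highest other change stood at 4.66 and 4.88 CPM. In ko replicates 1 to 4 it stood at 31.6, 14.96, 30.9 and 8.82 CPM, against at most 6.45 CPM for any other change. The A17U read was thus above every other change at positions 2 to 19 in 6 of 8 libraries. Changes at the ends of the read were left out of this count. The most frequent of these, U22A, had 586 reads, and it was above A17U in all 4 het libraries and in ko replicate 4, where it stood at 17.6 CPM. In het replicates 1 and 2 A17U was at 0, below 13 and 24 other changes at positions 2 to 19. In ko replicate 4 the 8.82 CPM of A17U came from 9 reads, beside 5.88 CPM for U6C.

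**Figure D3:**
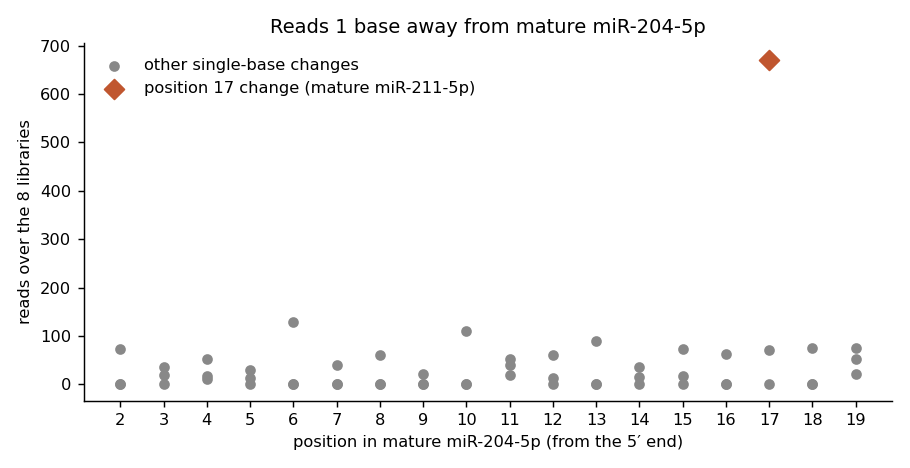
Reads over the 8 libraries of each sequence that differs by 1 base from mature miR-204-5p at positions 2 to 19, counted from the 5′ end; the diamond is the position 17 change that equals mature miR-211-5p and the grey points are the other 53 changes. The diamond is at 671 reads and no grey point is above 129; changes at the end positions, such as U22A with 586 reads, are not drawn.

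The 3′ ends gave a second measure that separates the paralogs, since the hairpins differ in the base that follows the mature 5p arm. In the lines below, capitals mark the base at position 17 and any base after the mature end, and the 5 most abundant reads of each 5p paralog are shown because they carry this difference.
miR-204-5p, mature: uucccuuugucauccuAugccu
miR-204-5p, longer by 1 base: uucccuuugucauccuAugccuG
miR-204-5p, longer by 2 bases: uucccuuugucauccuAugccuGU
miR-204-5p, shorter by 1 base: uucccuuugucauccuAugcc
miR-204-5p, shorter by 2 bases: uucccuuugucauccuAugc
miR-211-5p, mature: uucccuuugucauccuUugccu
miR-211-5p, shorter by 1 base: uucccuuugucauccuUugcc
miR-211-5p, longer by U: uucccuuugucauccuUugccuU
miR-211-5p, longer by A: uucccuuugucauccuUugccuA
miR-211-5p, shorter by 2 bases: uucccuuugucauccuUugc

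The mature miR-204-5p read averaged 2251 CPM and lay between 1356 and 3174 CPM. The read longer by G, which is the next base of its hairpin, averaged 368 CPM with 12864 reads, or 15.1% of the mature reads. The read longer by GU, whose U is not in the hairpin, had 5332 reads, or 6.26%. The reads shorter by 1 and 2 bases averaged 110.9 and 52.9 CPM. All 5 were present in all 8 libraries.

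For miR-211-5p the read longer by G was not listed, although 101.4 reads would be expected if it were extended as often as miR-204-5p, and every listed sequence of the table had at least 8 reads in all. The hairpin of miR-211 continues with A, and the read longer by A had 17 reads, or 2.53% of the 671 mature reads. The read longer by U had 26 reads. The mature miR-211-5p read was found in 6 libraries, the read shorter by 1 base, with 98 reads, in 5, and the read shorter by 2 bases, with 29 reads, in ko replicates 1 and 2 alone. These 2 were the deepest libraries and held 343 and 377 of the 898 miR-211-5p reads. The G extension of miR-204-5p was thus not listed on mature reads with U at position 17.

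The mature sequence made up 69.0% ± 3.40 of miR-204-5p reads (SD, n = 8). Reads longer at the 3′ end as in the hairpin made up 12.2% ± 1.72, and reads with an added 3′ base that the hairpin lacks 9.42% ± 2.04. Shorter 3′ ends made up 5.11% ± 1.12, shifted starts 3.24% ± 1.06, and internal changes or added 5′ bases 0.998% ± 0.193. For miR-211-5p, over the 6 libraries with reads, the mature sequence made up 78.0% ± 11.8 and shorter 3′ ends 10.8% ± 8.29. In that mean ko replicate 4 stands at 100% from 9 reads, and of the 898 reads pooled 74.7% were mature. Sequences with fewer than 8 reads in all are not listed. Rare forms of miR-211-5p are therefore missing at shares at which forms of miR-204-5p, with 119345 reads, are still listed. miR-204-3p had a mature share of 64.0% ± 6.75 and the highest share of added 3′ bases, 18.8% ± 7.16 (SD, n = 8). Its 2 most abundant reads are shown to give the arm's own end.
miR-204-3p, mature: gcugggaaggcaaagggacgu
miR-204-3p, shorter by 1 base: gcugggaaggcaaagggacg
They averaged 82.1 and 11.7 CPM.

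**Figure D4:**
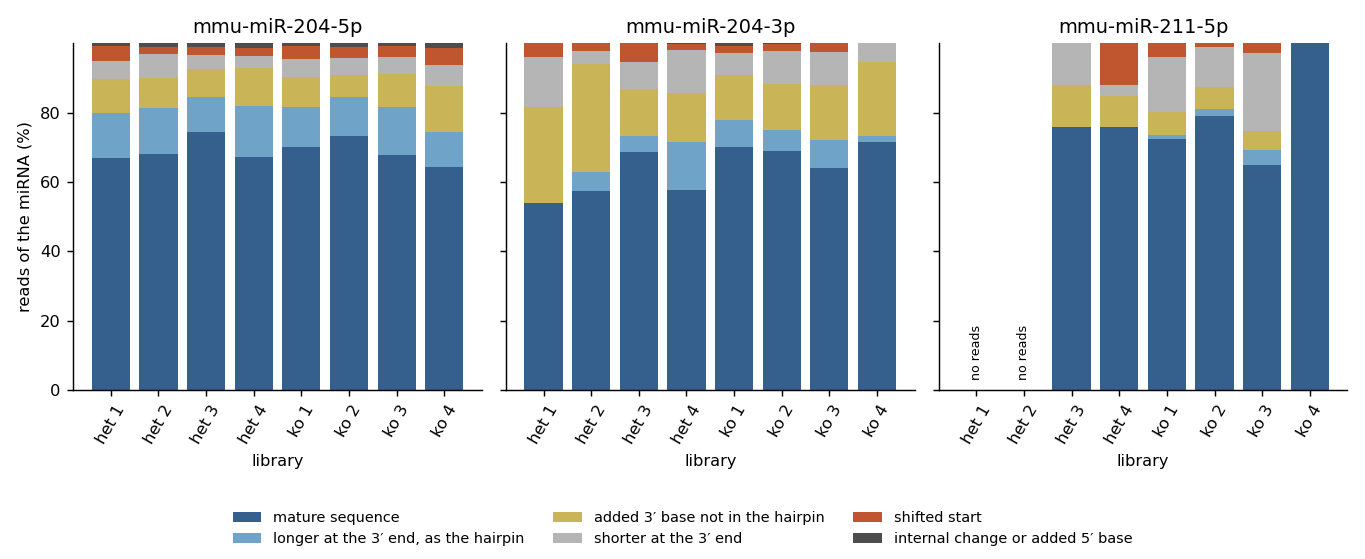
Percent of the reads of each miRNA in each library that fall in 6 classes of sequence, stacked to 100%; libraries without reads of miR-211-5p are marked. The mature sequence takes 64.3% to 74.4% of miR-204-5p reads, and the single bar at 100% for miR-211-5p rests on 9 reads.

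None of the 3 tests of miR-204-5p composition between genotypes passed. The share of reads with a shifted start averaged 2.73% ± 1.06 over the het libraries and 3.75% ± 0.909 over the ko libraries (SD, n = 4 per genotype, exact two-sided permutation p = 0.2, adjusted p = 0.333 over the 5 composition tests). In het replicates 1 to 4 the share was 4.29%, 1.98%, 2.22% and 2.43%, and in ko replicates 1 to 4 it was 3.77%, 3.25%, 2.96% and 5.02%. The highest share of each genotype came from its shallowest library. miR-204-5p reads averaged 22.18 ± 0.0470 nt over the het libraries and 22.12 ± 0.0416 nt over the ko libraries (n = 4 per genotype, exact permutation p = 0.114, adjusted p = 0.286). The exact mature sequence took 69.2% ± 3.53 of reads in the het libraries and 68.9% ± 3.80 in the ko libraries (n = 4 per genotype, exact permutation p = 0.914, adjusted p = 0.938). With 4 libraries a genotype the test cannot go below 0.0286. After adjustment over the 5 composition tests, 1 test alone at that floor would not pass 0.05. A pass needed all 3 genotype tests at the floor, so little can be read from their failing. With only reads of at least 19 nt the ko minus het differences went from 1.02 to 0.203 percentage points for shifted starts, from -0.0542 to -0.0192 nt for length and from -0.245 to 0.340 percentage points for the mature share.

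The paralogs were compared within the 5 libraries that held at least 20 reads of miR-211-5p. Rare sequences are not listed, which leaves 9 sequences of miR-211-5p and 104 of miR-204-5p. The part of this in the differences below was not tested. Mean read length was 21.89 ± 0.148 nt for miR-211-5p and 22.16 ± 0.0639 nt for miR-204-5p, a difference of -0.262 ± 0.185 nt. miR-211-5p was shorter in 5 of 5 libraries (exact two-sided sign-flip permutation p = 0.0625, the smallest 5 libraries allow, adjusted p = 0.286). The share of shifted starts was 3.93% ± 4.80 for miR-211-5p and 2.93% ± 0.625 for miR-204-5p (n = 5, exact sign-flip permutation p = 0.938, adjusted p = 0.938), and it was higher for miR-211-5p in 2 of 5 libraries. This difference changed sign, to -1.17 percentage points, without het replicate 4, where 12.1% of 33 reads had a shifted start. It was 0.00108 percentage points with only reads of at least 19 nt.

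A start moved by 1 or more bases gives a guide another seed. Reads that began at base 1 of mature miR-204-5p averaged 3136 CPM, and those that began at base 2 averaged 30.8 CPM. At bases 3 and 4 the mean was 2.85 and 4.15 CPM, and at base 5 it was 56.3 CPM, from 29.5 to 78.4 CPM over the 8 libraries. The start at base 5 was the most frequent one after base 1 in 7 of 8 libraries. In het replicate 3 it was at 29.5 CPM, below the 34.2 CPM of starts at base 2, and in het replicate 1 they stood close, at 54.1 and 52.1 CPM. Its main read of 18 nt, with the position 17 base in capitals, was found in all 8 libraries at 23.3 to 63.7 CPM.
miR-204-5p, start at base 5: cuuugucauccuAugccu
This read has the 6mer seed UUUGUC, with a seed viability of 74.9, in place of UCCCUU, with a seed viability of 96.5. Seed viability is the mean viability of 3 mouse cell lines given an siRNA with that seed, and it was measured in an earlier screen, not in these mice. Of miR-211-5p reads, 11 began at base 5 and 13 at base 2.

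**Figure D5:**
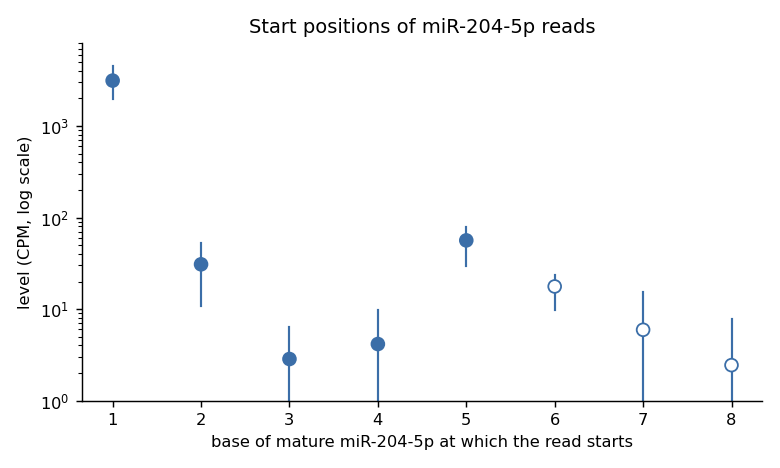
Mean level (CPM, log axis) of reads by the base of mature miR-204-5p at which they start, with the range over the 8 libraries as a line that is clipped at 1 CPM where a library was lower; filled points hold reads with the miRNA name, open points reads of the hairpin with no miRNA name. The level is 3136 CPM at base 1 and 56.3 CPM at base 5, above the 2.85 and 4.15 CPM at bases 3 and 4.

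The 6mer seed UCCCUU, positions 2 to 7 of both 5p paralogs, was carried by 3179 ± 909 CPM of reads (SD, n = 8). Reads named miR-204-5p made up 98.6% ± 0.467 of them, miR-211-5p 0.530% ± 0.503, and reads of the miR-204 hairpin with no miRNA name 0.896% ± 0.207. No other small RNA of the table carried this seed. Its viability of 96.5 was higher than that of 99.4% of the 3427 seeds in the table. By level it ranked 8 of 492 seeds with a viability over 80, and the members made up 3.68% ± 1.05 of the reads with such seeds.

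The 3p arm of the same hairpin presents the seed CUGGGA, with a viability of 35.7, higher than that of 18.6% of seeds. This seed was carried by 128.2 ± 56.0 CPM, of which miR-204-3p was 99.4% ± 1.17. miR-204-3p reads that began 1 base before the mature start had the seed GCUGGG, with a viability of 9.90, and made up 2.35% ± 1.66 of the arm. The seed of miR-211-3p, CAAGGA, was carried by 2.09 ± 3.22 CPM, none of it from a member.

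The arm whose seed has the higher viability was the more abundant one. The 3p arm made up 5.80%, 2.67%, 2.41% and 5.86% of miR-204 reads in het replicates 1 to 4, and 3.97%, 3.02%, 4.93% and 2.54% in ko replicates 1 to 4. The mean was 4.19% ± 1.90 in het and 3.61% ± 1.06 in ko (SD, n = 4 each), and the genotypes overlapped. The 5p arm exceeded the 3p arm by between 16.1 and 40.5 to 1. Over the 8 libraries the arms had a Pearson r of 0.54 on log2(CPM + 1). For miR-211 no arm share can be given, as only the 5p arm was listed and a 3p read with fewer reads than any listed sequence would not be seen.

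The miRNAs whose levels across the 8 libraries were most like those of miR-204-5p, among 460 others that averaged 10 CPM or more, were mmu-miR-1264-5p (Pearson r of log2(CPM + 1) = 0.88), miR-409-3p (0.87) and miR-145a-5p (0.85). For miR-211-5p they were the shared name let-7a-1-3p and let-7c-2-3p (0.99), miR-184-3p (0.91) and miR-128-2-5p (0.86). These are the highest of 460 values over 8 points that share their library depth, and are a description. miR-1264-5p ranged from 0.980 CPM in ko replicate 4 to 82.5 CPM in het replicate 2, which were also the libraries with the lowest and highest miR-204-5p. miR-184-3p was at 7.72, 6.19, 15.9 and 25.5 CPM in het replicates 1 to 4 and at 26.8, 28.3, 46.4 and 9.80 CPM in ko replicates 1 to 4. Its lowest libraries, het replicates 1 and 2, were those without miR-211-5p.

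The tissue was cortex and hippocampus, and choroid plexus or other tissue could be present in such a dissection. The miRNAs in introns of Htr2c, a serotonin receptor gene of the choroid plexus and of neurons, were all listed, 10 of 10, and their summed level ran from 293.5 to 406.5 CPM in het and from 238.8 to 496.8 CPM in ko. The most abundant were miR-1298-5p, with a mean of 204.6 CPM, and miR-448-3p, with 41.0 CPM. Of 7 tested, 0 passed by limma, edgeR or DESeq2 and 0 had an unadjusted limma p under 0.05, with a median log2 fold change of 0.04. Of 11 mRNAs that mark choroid plexus, most had no fragment listed. Ttr, Enpp2, Folr1, Kcnj13, Prlr, Aqp1, Cldn2, Otx2 and Clic6 had no listed read, and Kl had 1 read sequence in 1 library. Reads named for the eleventh, Trpm3, were at 152.2 to 308.5 CPM, but none of their 35 sequences occurs in a Trpm3 transcript of GENCODE M21. An Argonaute pulldown does not measure mRNA levels, so the tissue source of miR-204 cannot be read from these libraries, and fewer cells of a type and less RNA per cell cannot be told apart.

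Other marker miRNAs moved between the libraries, and their part in the levels of miR-204 and miR-211 was not tested. The miR-200 family of epithelia, with 8 of 10 names listed, summed to 2203 to 8516 CPM in het and to 164.8 to 1736 CPM in ko, led by miR-200a-3p and miR-200b-3p. Of 6 tested, 3 fell by limma at an adjusted p under 0.05 (2 by edgeR and 4 by DESeq2), with a median log2 fold change of -3.33 beside -0.09 over all miRNAs. The miRNAs of retina and pineal gland, which share tissues with Trpm1 and are led here by miR-182-5p and miR-96-5p, summed to 407.3 to 1374 CPM in het and to 55.3 to 158.1 CPM in ko (7 of 8 names listed). Of 4 tested, 3 fell by limma (2 by edgeR and 3 by DESeq2), and the fourth, miR-184-3p, had a log2 fold change of 0.97. These 3 and the 3 of the miR-200 family were all of the 6 miRNAs that limma called among 463 (1.30%). The sums of these lists were thus lower in all 4 ko libraries, in 3 of which miR-211-5p was at its highest. miRNAs of multiciliated cells, such as the ependyma beside the choroid plexus, summed to 647.6 to 1141 CPM in het and to 571.5 to 847.5 CPM in ko, with 6 of 9 listed, led by miR-34c-5p and miR-34b-5p. Of 5 tested, 0 passed by limma, edgeR or DESeq2, and 1 had an unadjusted limma p under 0.05.

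Vascular and stromal miRNAs, led by miR-126a-3p and miR-143-3p, overlapped between genotypes (10986 to 17348 CPM in het, 9871 to 17064 CPM in ko, 10 of 10 listed). So did erythroid miRNAs, led by miR-451a and miR-144-3p, at 1923 to 3400 CPM in het and 934.9 to 2398 CPM in ko (5 of 5 listed). One name in each of these lists, miR-199a-3p and miR-486a-5p, is listed under a name shared with its b paralog, and those reads are included. Neuron miRNAs, led by miR-128-3p and miR-9-5p, were at 159180 to 210345 CPM in het and 163479 to 266191 CPM in ko (5 of 5 listed). By limma 0 of 9 vascular, 0 of 4 erythroid and 0 of 5 neuron miRNAs tested passed, with 3, 1 and 0 at an unadjusted p under 0.05. edgeR called none of them, and DESeq2 called 1 of the vascular list. Of 7 pigment cell genes, Mitf had 2 read sequences and Trpm1 had 1, which occurs in no Trpm1 transcript of GENCODE M21, and together they reached at most 1.17 CPM in a library.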

How the data were processed

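The table came from the SPOROS pipeline of the authors, in which reads were trimmed (Trim Galore per the submitters' processing notes, version not given in the sources used here), rare and artificial reads were removed, and each distinct sequence was named by BLAST. The deposited values are CPM, scaled by the authors to 1000000 reads per library, and the deposited seed viability score is the authors' mean over 3 mouse cell lines. The genome build and aligner settings are not given in the sources used here. Because rare reads were removed, no listed sequence had fewer than 8 reads in all. The members, lists and tests were chosen with earlier results of these data known.

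All rows with a member's name were summed per library. 100% of values came out as whole reads (within 0.001 CPM), which gave the depth, from 517980 to 19915863 reads. Reads without molecular identifiers are not independent molecules, so 95% Wilson intervals and the limit of 3 reads cover counting error only. The labels give each of the 8 libraries a mouse of its own. A name shared by paralogs counted for a list that holds either.

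miRNAs that averaged 10 CPM or more entered limma 3.58.1 in R 4.3.3 (eBayes, trend and robust options on) as log2(CPM + 1), all 8 libraries in one fit, with Benjamini-Hochberg adjustment. edgeR 4.0.16 and DESeq2 1.42.0 were run on the recovered reads as alternatives. The steps were tested on simulated data. Composition was compared by exact two-sided permutation tests with adjustment over 5 tests. The rule for named items was the 4 members, the 5 most abundant reads of each 5p arm and 2 of the 3p arm, the 3 most similar miRNAs, and the 2 most abundant names of each list. The read that starts at base 5, the other list members given with values and the single-base changes named beside A17U were chosen after their values were seen. Other computations used Python 3.11.15, numpy 2.4.6, pandas 2.3.3, scipy 1.17.1 and matplotlib 3.10.9.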

Additional observations from a re-analysis of the deposited data

Results flagged for a closer look

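The mean read length of miR-204-5p in het replicate 4 was 22.25 nt, apart from the other het libraries by more than Dixon's 95% limit for 4 values, with the next at 22.16 nt. The share of miR-204-5p reads that were the exact mature sequence stood apart in het replicate 3, at 74.4%, with the next at 68.0%. Of 18 groups of 4 libraries looked at in this way, 2 stood apart, and chance gives about 1 in 20.

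Reads that the table matches to the miR-204 hairpin but gives no miRNA name stood outside the comparisons above. They were 53 sequences with 2303 reads and averaged 67.0 ± 17.9 CPM (SD, n = 8), from 40.2 to 96.5 CPM, or 2.06% of the miR-204-5p level, and every library had at least 41 such reads. No unnamed read was matched to the miR-211 hairpin. Among them were all 12 sequences that began at bases 6 to 8 of mature miR-204-5p, with 948 reads, so counting by name leaves the late starts out.
The most frequent one began at base 6, with 476 reads: uuugucauccuaugccu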

How the results depend on the processing

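The count of miRNAs called was 6 and ranged from 4 to 9 over the 8 fits that each left out a library, with 4 by edgeR and 9 by DESeq2. With a replicate block it was 10. The same-numbered libraries did not pair, as the correlations of their deviations were 0.04, 0.29, -0.18 and 0.25 over 463 miRNAs and 1 of 4 het libraries correlated best with its own number. The block changed no call of a member, since 0 members were called in any fit. Over leave-one-out fits the log2 fold change ranged from 2.29 to 3.53 for miR-211-5p, from -0.32 to 0.04 for miR-204-5p and from -0.63 to 0.05 for miR-204-3p.

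Over all alternatives the miR-211-5p share of the pair averaged between 0.361% and 0.638%, and leaving out a library moved it between 0.401% and 0.606%. The 3p share of miR-204 averaged 3.90% ± 1.46 and ranged from 3.62% to 4.11% when a library was left out. The difference in the exact mature share, ko against het, was -0.245 percentage points and changed sign to 0.340 with only reads of at least 19 nt. Over leave-one-out values it ranged from -1.72 to 1.505, and it was positive, at 1.505, 0.0930 and 1.29, without het replicate 3, ko replicate 3 and ko replicate 4. The difference of shifted starts between the paralogs ranged from -1.17 to 1.81 when a library was left out. That of shifted starts between genotypes ranged from 0.598 to 1.54 and that of length from -0.0732 to -0.0309 nt. Without the 2 libraries over 5000000 reads, ko replicates 1 and 2, the difference in the mature share was -3.05 and that of shifted starts between the paralogs 2.40 percentage points. With only reads of at least 19 nt these differences were 0.203 points for shifted starts between genotypes, -0.0192 nt for length and 0.00108 points for shifted starts between the paralogs. With labels permuted within same-numbered pairs as a replicate block, the genotype differences were as reported, and no such test could pass, as the smallest p is 0.125. The alternatives without the 2 libraries of fewest reads and with unnamed hairpin reads were chosen after seeing the data.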

Other observations

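Reads that the table names for a transcript of Trpm3, the host of miR-204, averaged 199.1 CPM, from 152.2 to 308.5 CPM over the 8 libraries. They were 35 sequences with 6845 reads, and 33 of them shared their first 15 bases. None of the 35 occurred in any of the 24 Trpm3 transcripts of GENCODE M21, on either strand, so these reads were not counted as fragments of the host mRNA. The single sequence named for Trpm1 had 15 reads and did not occur in any of the 23 Trpm1 transcripts searched.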
